A study of Mus musculus with 4 samples.

Results

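Cxcl13, the chemokine that draws B cells into follicles, and Cxcr5, the receptor that reads it, are 2 of the 27998 genes counted in CD45-enriched cells of mouse mammary tumours. The pair was selected on values measured in these libraries, so its levels by treatment and by gate are given as a description and carry no test. MT4788 mammary tumours were grown orthotopically in FVB mice of wild-type genotype and taken on day 4. Per the labels, CD45-positive cells were enriched with magnetic beads to over 90% and 10000 cells per condition went into a 10x Genomics 3′ library. Tumours were treated with saline and PBS (control), saline and phenformin (phenformin), poly I:C and PBS (poly I:C) or poly I:C and phenformin (combination). Phenformin is a biguanide drug that blocks complex I of the respiratory chain, and poly I:C mimics viral double-stranded RNA and acts through Toll-like receptor 3. Doses, the age of the mice and how many of them stand behind a library are not used here.

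Each treatment was represented by 1 library, so there is no replicate, and all intervals are at the 95% level and cover counting error only. A cell was kept if it had 200 or more genes and less than 20% of its UMIs (unique molecular identifiers, 1 per captured transcript) from mitochondrial genes. This left 6095 cells in control, 5453 in phenformin, 6619 in poly I:C and 8268 in combination. Median depth per cell ran from 5902 to 8430 UMIs and was lowest in combination. Any 2 libraries shared 8 to 21 of the kept cell barcodes. Cells were sorted by raw UMIs into a macrophage gate (Csf1r, Cd68 and Adgre1 together at 3 or more), a T gate (Cd3d, Cd3e and Cd3g at 2 or more) and a B gate (Cd79a and Cd79b at 2 or more). The macrophage gate held 2030, 2268, 2641 and 2759 cells, in the order just given, which is kept below wherever 4 values follow each other. All 12 macrophage markers, C1qa and Apoe among them, were found in at least 5% of the cells that passed this gate alone in every library. The summed level of 5 neutrophil markers in these cells ran 109, 158, 298 and 424 CPM; its part in the results on macrophages was not tested. The list of 10 markers of follicular or reticular stroma summed to 632, 692, 1107 and 1022 CPM there, of which Vcam1, an adhesion molecule that macrophages also make, gave 590, 658, 1002 and 964. Its defining members Cr2 and Ccl21a were at 0 in all 4 libraries, and the part of this list was not tested. A cell may pass several gates, as 144, 148, 344 and 379 cells did, so values for cells in 1 gate only are given where they matter. CPM is the sum of a gene's UMIs over a gate per 1e+06 UMIs of that gate.

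Cxcl13 is made by follicular dendritic and reticular stroma of lymphoid follicles and by some macrophages and T cells, and it forms the gradient along which Cxcr5-bearing B cells and follicular helper T cells gather. In stroma its transcription depends on lymphotoxin signalling through the lymphotoxin beta receptor and the non-canonical NF-kB factors Relb and Nfkb2. In tumours the pair is followed as a mark of tertiary lymphoid structures.

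In GENCODE vM21 (GRCm38), Cxcl13 (ENSMUSG00000023078) spans chr5:95956951-95961068 on the plus strand, with 4 exons in its 1 coding transcript. Cxcr5 (ENSMUSG00000047880) spans chr9:44511787-44561877 on the minus strand, with 4 coding transcripts of 2 to 4 exons. The 250 bases before the RefSeq start of Cxcl13 (GRCm38.p6, chr5:95956689-95956938, plus strand) are shown because this is where a kB-type element of the gene is known. Capitals mark the kB-type letters GGGAGATT and the TATA-type letters TATAAA.

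Cxcl13: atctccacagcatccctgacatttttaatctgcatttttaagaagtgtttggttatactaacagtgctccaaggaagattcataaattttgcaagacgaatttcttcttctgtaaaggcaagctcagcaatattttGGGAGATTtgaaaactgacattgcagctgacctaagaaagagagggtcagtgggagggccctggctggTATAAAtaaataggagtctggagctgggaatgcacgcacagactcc

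Both strands were searched. GGGAGATT begins 114 bases before the start and occurs in 0.791% of 32851 RefSeq promoters of the same length. It was searched because it is known from this promoter, so the match itself is no result. TATAAA begins 46 bases before the start and occurs in 12.4% of promoters. TGANTCA, the AP-1 type, has no match in this window and occurs in 6.75% of promoters.

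Cxcl13 was a rare transcript carried by few cells, most of them macrophages, and was most frequent in the combination library. Over all kept cells, a Cxcl13 UMI was present in 37 of control, 17 of phenformin, 39 of poly I:C and 227 of combination, or 0.607%, 0.312%, 0.589% and 2.75%. In the macrophage gate, 1.03% of control cells held one (95% interval 0.641 to 1.58, exact binomial). The share was 0.573% (0.306 to 0.978) with phenformin and 1.29% (0.893 to 1.79) with poly I:C. It was 5.11% (4.32 to 5.999) in the combination, 4.94 times the control share and 3.97 times the poly I:C share. The combination interval lies above the other 3, which overlap each other. At a fixed depth of 2000 UMIs per cell the macrophage shares were 0.55%, 0.401%, 0.649% and 2.91%, in the same order of libraries, with 30, 25, 22 and 40 shallower cells left out.

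Summed levels followed another order. Macrophage-gate Cxcl13 was 11.2 CPM in control, 17.1 with phenformin, 4.23 with poly I:C and 69.2 in the combination, from 252, 537, 158 and 2179 UMIs. The combination was 6.18-fold above control (interval 5.42 to 7.07), 16.3-fold above poly I:C (13.9 to 19.3) and 4.06-fold above phenformin (3.69 to 4.47). Poly I:C alone stood at 0.378 of control (0.308 to 0.463) by CPM and at 1.24 by share of cells. Phenformin alone stood at 1.52 of control (1.31 to 1.78) by CPM and at 0.554 by share of cells. Each single treatment had opposite directions by the 2 measures, while the combination was highest by both. With gates taken after thinning to 2000 UMIs, both single treatments stood above control by both measures: CPM ratios were 2.38 for phenformin and 2.37 for poly I:C, and shares were 0.51% in control, 0.704% in phenformin, 1.04% in poly I:C and 3.28% in combination. Before thinning, on the log2 scale, the combination exceeded the sum of both single treatments by 3.42 in CPM and by 2.84 in share of cells. This excess has no interval. It was not computed with gates taken after thinning, where both single treatments stood above control.

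**Figure D1:**
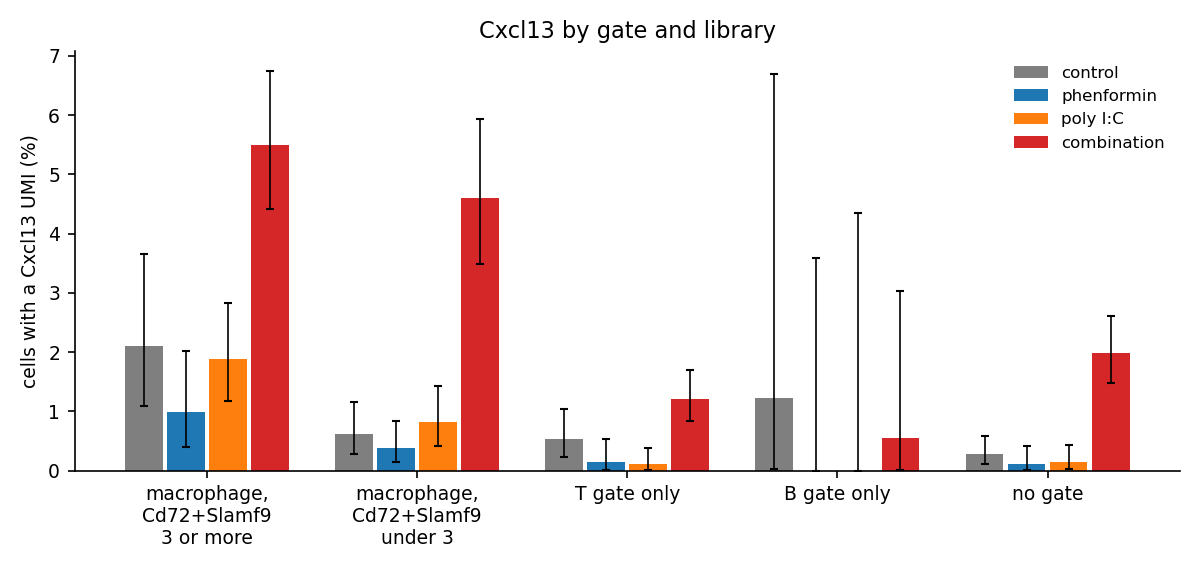
Share of cells with a Cxcl13 UMI (y axis, %) in 5 sets of cells, with 1 bar per library and exact binomial 95% intervals. The combination reached 5.50% and 4.60% in the 2 macrophage sets, above every other bar. Intervals are wide in the thinly filled B gate.

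Cells that held 5 or more Cxcl13 UMIs numbered 11 in control, 7 in phenformin, 11 in poly I:C and 63 in combination. These 92 cells carried 86.3%, 97.6%, 77.6% and 90.5% of each library's Cxcl13 UMIs. One phenformin cell alone held 312 of 542 UMIs and one control cell held 106 of 292. Without the top cell of each macrophage gate, phenformin was 1.10-fold over control, poly I:C 0.561, and the combination 9.82-fold over control and 8.92-fold over phenformin. Of the Cxcl13-rich cells, 8, 7, 10 and 56 passed the macrophage gate, and 9, 7, 10 and 62 held C1qa, the complement component made by macrophages. No Cxcl13-rich cell held a UMI of Cr2, the complement receptor of follicular dendritic cells, or of Ccl19, a chemokine of reticular stroma, and none held Cxcr5. In whole libraries Ccl19 had 15, 2, 6 and 4 UMIs and Cr2 9, 24, 14 and 42. Of these Cr2 UMIs, 8, 24, 11 and 36 lay in the B gate, so they are no count of stroma. Broader stromal genes were more abundant: Pdpn, the podoplanin of reticular cells and some macrophages, had 914, 840, 1936 and 1329 UMIs and was in 2, 1, 1 and 6 of the Cxcl13-rich cells. Col1a1 and Pdgfrb were each in 0, 0, 1 and 3 of them.

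The single richest cell of the combination library was not a macrophage by these gates. It held 216 Cxcl13 UMIs of 10218, together with 212 of S100a9, the neutrophil calprotectin subunit, 5 of Col1a1, a fibroblast collagen, and none of C1qa. Combination cells that passed no gate held 357 Cxcl13 UMIs: their level was 17.5 CPM with it and 6.91 without it. Cells of the T gate alone were Cxcl13-rich 4 times, 3 in control with 12, 5 and 5 UMIs and 1 in poly I:C with 12. All 4 held 24 to 38 Cd3 UMIs, and 3 of them held no C1qa UMI. A gate of type 1 conventional dendritic cells, by Xcr1 and Clec9a, held Cxcl13 at 20.9, 0, 0 and 242 CPM. Combination was 11.6-fold above control there by CPM, and 15.6-fold without the top cell of each library. By share of cells with a Cxcl13 UMI it was 3.43-fold above control, and by share with 5 or more UMIs 1.71-fold. A cell may pass this gate and the macrophage gate together, as the control cell with 21 Cxcl13 UMIs did. The part of this overlap was not tested.

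**Figure D2:**
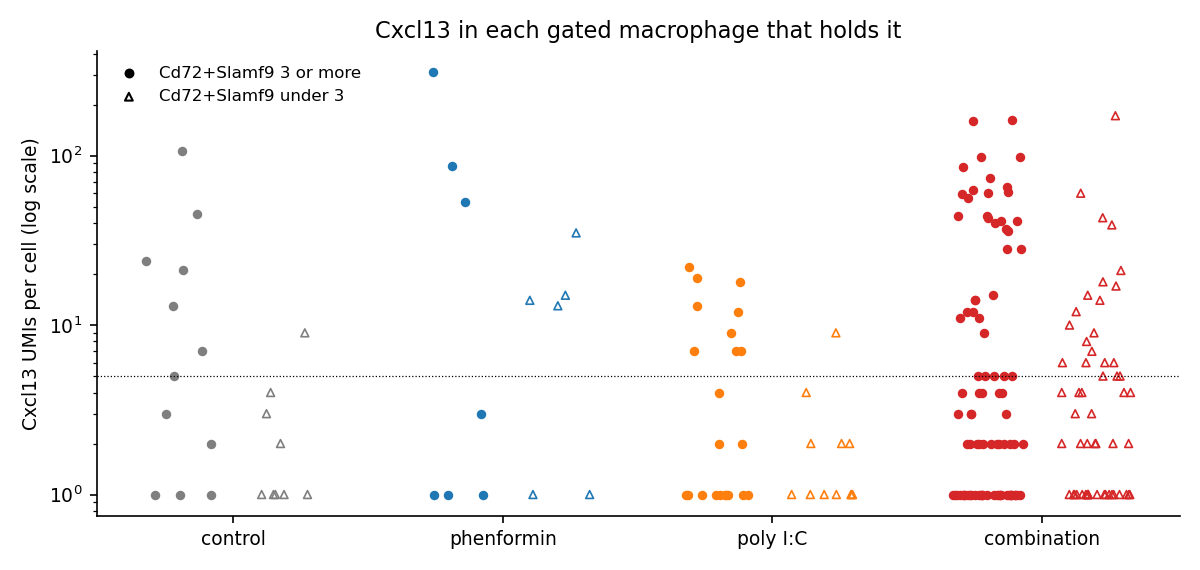
Each point is 1 gated macrophage that held Cxcl13 (y axis, UMIs per cell, log scale), by library; filled circles have 3 or more Cd72 and Slamf9 UMIs, open triangles fewer, and the dotted line is at 5 UMIs. Most UMIs sit in few cells, with 1 phenformin cell at 312, and the combination has 56 cells at or above the line against 7 to 10 in the other libraries.

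The macrophage gate was split by Cd72, an inhibitory co-receptor of B cells and macrophages, and Slamf9, a SLAM-family receptor of myeloid cells. Cells with 3 or more UMIs of these genes made up 28.0% of control, 31.4% of phenformin, 44.3% of poly I:C and 56.7% of combination macrophages. In control, Cxcl13 stood at 27.7 CPM in these cells and at 1.61 in the rest, a ratio of 17.2 (11.2 to 27.7). Phenformin had 36.3 and 4.19 CPM, a ratio of 8.66 (6.81 to 11.1). Poly I:C had 6.45 and 1.54 CPM, a ratio of 4.19 (2.74 to 6.65). The combination had 78.0 and 51.6 CPM, a ratio of 1.51 (1.37 to 1.67), so both sets were nearest to each other where Cxcl13 was highest. The poly I:C ratio turned to 0.412 with higher gates, and the phenformin ratio to 0 with gates taken after thinning. Cells with 3 or more of these UMIs were also deeper, at a median of 13108 against 8247 UMIs in control and 12351 against 7776 in combination. At 2000 UMIs per cell the combination shares were 2.88% and 2.93%, and the control shares 1.23% and 0.279%.

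By share of cells, the set with fewer of these UMIs stood at 0.616% (0.282 to 1.17) in control and 4.60% (3.48 to 5.94) in combination. The set with 3 or more stood at 2.11% (1.09 to 3.65) and 5.50% (4.42 to 6.75). Weighted to the control mix of both sets, the combination stood at 61.3 CPM and 4.85% of cells, against 69.2 and 5.11% as measured. Within combination the share did not climb evenly with Cd72 and Slamf9. It was 2.68% at 0 UMIs, 6.51% at 1 to 2, 2.71% at 3 to 5 and 6.88% at 6 or more.

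Macrophages with Cxcl13 had more UMIs of several genes known from tissue-resident macrophages than the others of their library. The comparison was made in combination, the library with at least 20 cells of 2 or more Cxcl13 UMIs (91 cells, against 2618 with none), and 3067 genes were ranked by their CPM ratio. The ratios describe these cells and carry no test, since the cells were chosen by Cxcl13. The other 3 libraries, with 38 such cells against 6871, did not enter the ranking. They were summed, so their ratios also carry differences between those libraries. Median depth was 10117 UMIs in the 91 cells and 10362 in the 2618.

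The first 4 genes were scavenger and lectin receptors. Cd209f, a C-type lectin of the DC-SIGN family, stood at 178 CPM against 16.7, a ratio of 10.7 (8.91 to 12.7). In the 3 libraries outside the ranking its ratio was 32.4 (26.6 to 39.1). Cd209g, its neighbour in the family, had ratios of 9.003 (6.88 to 11.7) and 44.9 (34.7 to 57.7). Lyve1, the hyaluronan receptor, had 5.49 (4.06 to 7.32) and 6.98 (4.22 to 10.9), with 2.80 in combination at 2000 UMIs per cell, and Cd163, the haemoglobin scavenger receptor, 4.68 (3.40 to 6.32) and 11.98 (8.14 to 17.1). These genes were not in every Cxcl13 cell: 20.9% of the 91 held Cd209f and 17.6% held Cd163, against 3.48% and 3.63% of the 2618. Cd209g was in 16.5% against 2.33% and Lyve1 in 8.79% against 3.44%. The intervals of the ratios count UMIs, so they do not cover the spread between cells.

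The next genes were Cbr2, a carbonyl reductase, at 4.52-fold, Ccl7, a monocyte chemokine, at 4.34-fold, Cp, ceruloplasmin, at 3.99-fold and Folr2, the folate receptor of resident macrophages, at 3.44-fold. Saa3, an acute-phase protein, Cela1, Pmp22 and Tmem176a followed at 3.30-, 3.13-, 2.96- and 2.93-fold. All 12 stood above 1 in the other 3 libraries as well, where 48.8% of the ranked genes did. Cela1 had the interval that reached below 1 there (0.899 to 3.77), and at 2000 UMIs per cell its combination ratio was 1.30.

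Genes of monocytes and neutrophils were among the lowest in Cxcl13 macrophages. S100a9 had a ratio of 0.0274 and S100a8 0.0576, from 6 UMIs each in the 91 cells, although S100a9 was present in 6.59% of them and 7.22% of the 2618. Slpi, a protease inhibitor, stood at 0.113, Fn1, fibronectin, at 0.113, Upp1 at 0.121, Chil3, the chitinase-like protein of monocytes, at 0.176 and F10, coagulation factor X, at 0.232. These 7 stood below 1 in the other 3 libraries too, where 51.2% of the ranked genes did. Ccl24, an eotaxin, was at 0.034 in combination and at 1.08 in the others, whose macrophages differ widely in it (2153, 2656 and 273 CPM). Cells with at least 1 Cxcl13 UMI gave milder ratios for S100a9 (0.414), S100a8 (0.367), Ccl24 (0.517), Fn1 (0.375) and Upp1 (0.248).

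Genes used by the gates differed in direction. Cd72 was at 1.75-fold, Slamf9 at 1.68-fold, Adgre1, the F4/80 antigen, at 1.59-fold and Csf1r at 1.18-fold, while Cd68 stood at 0.865 (0.776 to 0.962). Mrc1, the mannose receptor, was 1.94-fold higher and Ccl8 1.62-fold. Lyz2 and Vcam1 stood lower, at 0.818 (0.793 to 0.844) and 0.878 (0.817 to 0.942). In the other 3 libraries Lyz2 was at 1.11 and Vcam1 at 1.28. Ltbr, the lymphotoxin beta receptor, was 1.43-fold (1.09 to 1.85), Relb 1.43-fold (1.06 to 1.89) and Nfkb2 1.002-fold (0.735 to 1.34) in combination. In the other 3 libraries the intervals of Ltbr, Relb and Nfkb2 all included 1.

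**Figure D3:**
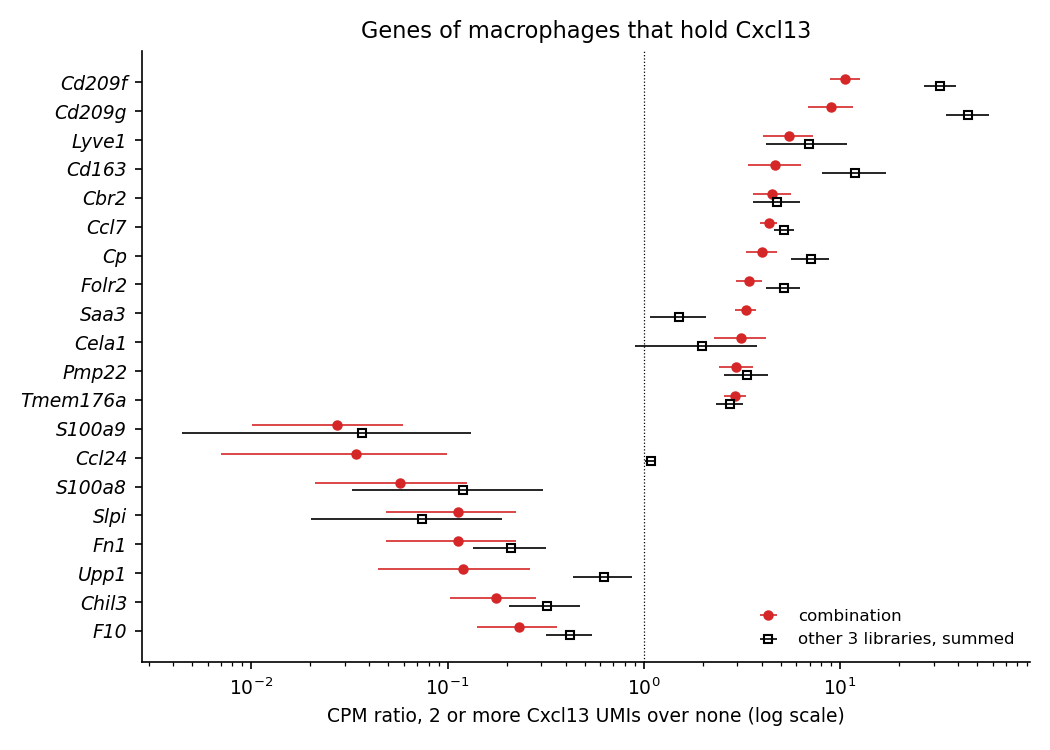
CPM ratio (x axis, log scale) of macrophages with 2 or more Cxcl13 UMIs over those with none, for the 12 highest and 8 lowest genes ranked in combination (circles), beside the other 3 libraries summed (squares), with exact 95% intervals. All 12 higher genes lie right of 1 in both, and of the 8 lower genes Ccl24 lies left of 1 in combination alone.

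Cells with Cd209f, Cd209g, Lyve1 or Cd163, a group put together after the ranking was seen, were counted in all 4 libraries. Macrophages with 2 or more UMIs of the 4 genes made up 1.48% of the gate in control, 2.82% in phenformin, 2.61% in poly I:C and 5.22% in combination. Cxcl13 UMIs were present in 1 of 30 such cells in control, 3 of 64 in phenformin, 11 of 69 in poly I:C (15.9%, 8.24 to 26.7) and 28 of 144 in combination (19.4%, 13.3 to 26.9). In macrophages with none of the 4 genes the shares were 1.02%, 0.372%, 0.873% and 4.26%. The poly I:C and combination intervals at 2 or more UMIs overlap, and since the 4 genes were chosen in combination, its share there is a description only. Cells with 3 or more Cd72 and Slamf9 UMIs and none of the 4 genes held 90.9%, 85.1%, 71.5% and 61.7% of the gate's Cxcl13 UMIs. In combination a further 15.5% lay in the 134 cells with fewer Cd72 and Slamf9 UMIs and at least 1 UMI of the 4 genes, 17.9% of which held Cxcl13.

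**Figure D4:**
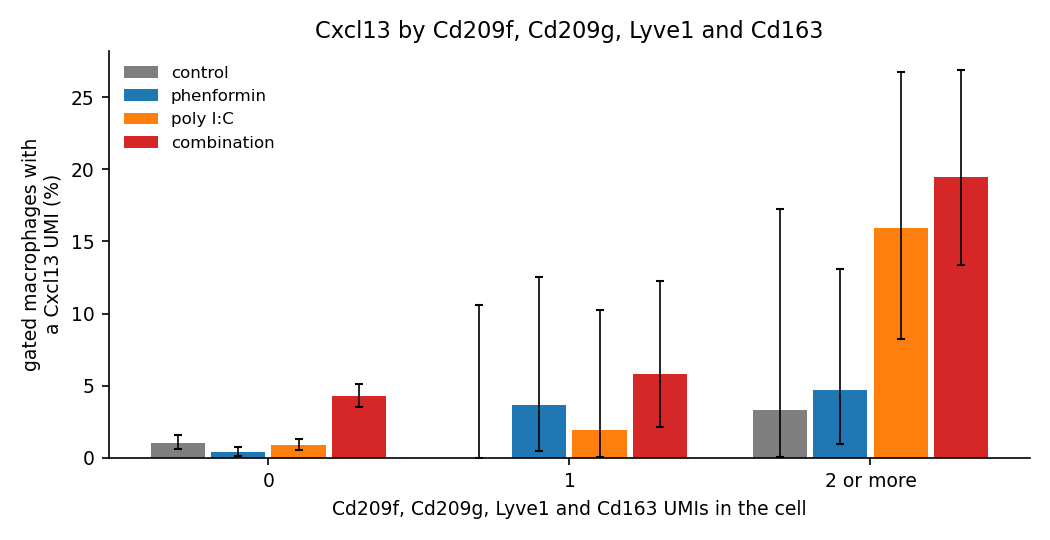
Share of gated macrophages with a Cxcl13 UMI (y axis, %) by the number of Cd209f, Cd209g, Lyve1 and Cd163 UMIs in the cell (x axis), 1 bar per library with exact binomial 95% intervals. The bars at 2 or more are 3.33%, 4.69%, 15.9% and 19.4%, from 30 to 144 cells.

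Lymphocytes held little Cxcl13 of their own. Among cells of the T gate alone, 8 of 1501 control, 2 of 1370 phenformin, 2 of 1875 poly I:C and 34 of 2792 combination cells held a UMI. Of these 34 cells, 31 held exactly 1 UMI. By CPM these T cells stood at 2.09, 0.225, 0.927 and 2.01, with combination at 0.959 of control (0.568 to 1.64). The 12 macrophage markers summed to 243, 266, 497 and 488 CPM in these T cells, and their part was not tested. Cells of the B gate alone held Cxcl13 in 1 of 81, 0 of 101, 0 of 83 and 1 of 181 cells. A count of 0, limited here at 3 counts and not by the binomial interval, allows shares of up to 2.97% and 3.61%. The full B gate of combination stood at 169 CPM, but 437 of its 439 UMIs were in cells that passed the macrophage gate too. Barcodes left out by the cell filter held Cxcl13 at 2.30, 1.21, 0.705 and 17.2 CPM, so the summed level of such barcodes was highest in the same library. Whether free RNA adds to the 1-UMI cells was not tested.

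Over 51 profiles of a gate in a library, the genes with the pattern most like that of Cxcl13 included Btnl2, a butyrophilin-like protein (Pearson r = 0.70), Cox4i2, Prune2, Tnfsf13b, Folr2, Siglec1, the sialoadhesin of resident macrophages, and Abhd12 (0.65). The profiles share libraries and overlap in cells, so these values describe likeness and no more. Tnfsf13b, which encodes the B cell survival factor BAFF, stood at 31.3, 31.3, 34.0 and 52.2 CPM in the macrophage gates. The combination level was 1.67-fold (1.53 to 1.83) above control.

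Of the other chemokine genes of lymphoid tissue, few passed the level for testing in macrophages. Genes were tested between libraries when they had at least 50 CPM and 30 UMIs in the higher one. Of these, genes were counted as higher or lower if they differed 1.5-fold or more with an interval that left out 1. The higher library sets the level, so a gene can be tested only because it is high there. Counts of list members are therefore a description. Combination over control, 4 of 7 tested members of the lymphoid chemokine list were higher and 2 lower, against 4.3% and 5.03% of all tested genes. The 4 were Cxcl13 itself, Cxcl10 at 1.70-fold, Cxcr4 at 1.54-fold and Cxcl9 at 1.52-fold. Cxcl13 is a gene this part was chosen on, and at 11.2, 17.1, 4.23 and 69.2 CPM it reached the level in combination alone. Its place in these counts, and in those over poly I:C and over phenformin below, is a description only. Cxcl9 and Cxcl10 are interferon-induced ligands of Cxcr3. The 2 were Ccr7, the receptor for Ccl19 and Ccl21, at 0.460 and Gpr183, the oxysterol receptor that positions B cells, at 0.560. Cxcl9 was also 1.64-fold higher with phenformin, the 1 called of 6 tested there, and the background was 0.49% higher and 0.261% lower. With poly I:C, Cxcl9 at 1.75-fold was higher and Ccr7 at 0.553 lower of 6 tested, beside 3.31% and 4.3%. Cxcl13 was below the level for testing in both single treatments.

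Combination over poly I:C, Cxcl13 and Cxcl10 (1.57-fold) were higher and none lower of 6 tested, beside 1.06% and 1.52% of all genes. With TMM scaling Cxcl10 stood at 1.49-fold there and was not called, and the counts over all genes were 20 higher and 68 lower in place of 32 and 46. The same scaling gave 19 higher and 5 lower in place of 15 and 8 for phenformin over control, and 139 and 83 in place of 104 and 135 for poly I:C over control. Combination over phenformin, Cxcl13 was higher and Ccr7 (0.623) and Gpr183 (0.474) lower of 7 tested, beside 3.69% and 4.49%. Ch25h, which makes the oxysterol read by Gpr183, stood at 8.84, 11.1, 9.72 and 21.5 CPM, below the level for testing. Cxcl12, Cxcl16, Cxcr6, Cxcr3, Ackr3, Ackr4, Cyp7b1, Ccl19 and Ccl21a were not called in any of the 5 comparisons, and of these Cxcl16 was tested in all of them.

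The lymphotoxin and non-canonical NF-kB list, which holds known inducers of Cxcl13, was largely under the level for testing in macrophages. Of 15 members, 3 or 4 were tested in each comparison and none was higher, beside 0.49% to 4.3% of all genes. Birc3, an inhibitor of apoptosis protein that takes part in NF-kB signalling, was the 1 called, lower with poly I:C at 48.7 against 74.5 CPM. Of all tested genes, 4.3% were lower there. TMM scaling put the Birc3 ratio of 0.654 at 0.695, short of the fold. Ltbr stood at 43.1, 44.5, 42.3 and 45.3 CPM and Relb at 33.3, 32.8, 33.4 and 37.2, both under the level for testing. Tnf stood at 7.69, 10.7, 11.7 and 5.14 CPM and Map3k14, the NF-kB-inducing kinase, at 27.0, 19.6, 17.4 and 19.3. Of the B cell survival list, Tnfsf13b was the 1 called of 3 tested members, higher in combination than in each other library. Of all genes, 4.3% were higher against control, 1.06% against poly I:C and 3.69% against phenformin. At 31.3, 31.3, 34.0 and 52.2 CPM, Tnfsf13b reached the level for testing in combination alone. Its place in these counts is a description only. Against poly I:C its ratio of 1.53 became 1.45 with TMM scaling, short of the fold. Cd40, the co-stimulatory receptor, stood at 79.2, 97.6, 94.2 and 90.4 CPM.

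Cxcr5 was most frequent per cell in B cells, while T cells held as many or more of its positive cells in some libraries. In whole libraries it had 61, 84, 29 and 72 UMIs in 48, 62, 24 and 52 cells, of which 16, 36, 8 and 32 passed the B gate and 22, 22, 10 and 14 the T gate. In the B gate a UMI was present in 13.8% of 116 control cells (8.09 to 21.4) and 25.2% of 143 phenformin cells (18.3 to 33.1). With poly I:C it was 5.10% of 157 (2.23 to 9.79), and in combination 9.88% of 324 (6.85 to 13.7). In cells of the B gate alone the shares were 17.3%, 28.7%, 6.02% and 14.9%. Macrophages, which should lack Cxcr5, held it in 0.211%, 0.0938%, 0.0868% and 0.0416% of cells of that gate alone, at median depths of 8931 to 11906 UMIs against 2641 to 7387 in B cells. The B cell shares were far above that background in each library.

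The B gate holds plasma cells too, the antibody-secreting stage, in which Cxcr5 is known to be switched off. Of cells of the B gate alone, 38.3% in control, 28.7% in phenformin, 73.5% in poly I:C and 12.2% in combination held 5 or more UMIs of Jchain, Mzb1 and Sdc1. The part of plasma cells in the order of the libraries was not tested. Without them, Cxcr5 was present in 11 of 50 control cells (22.0%, 11.5 to 36.0), 27 of 72 phenformin cells (37.5%, 26.4 to 49.7), 3 of 22 poly I:C cells (13.6%, 2.91 to 34.9) and 24 of 159 combination cells (15.1%, 9.92 to 21.6). Their levels were 71.2, 111, 61.9 and 82.1 CPM. By CPM the intervals of all 5 ratios between libraries included 1. By share, phenformin and combination had intervals that did not overlap, at median depths of 3592 and 2563 UMIs. At 2000 UMIs per cell these shares were 18.8% (10.4 to 30.1) and 14.5% (8.96 to 21.7), which overlap, so a difference was not detectable at this depth.

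B cells outside the plasma set were more frequent in the combination library, at 159 cells or 1.92% of kept cells (1.64 to 2.24). They made up 0.820% (0.609 to 1.08) in control, 1.32% (1.03 to 1.66) in phenformin and 0.332% (0.208 to 0.503) in poly I:C. These are shares of bead-enriched cells from 1 library each.

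**Figure D5:**
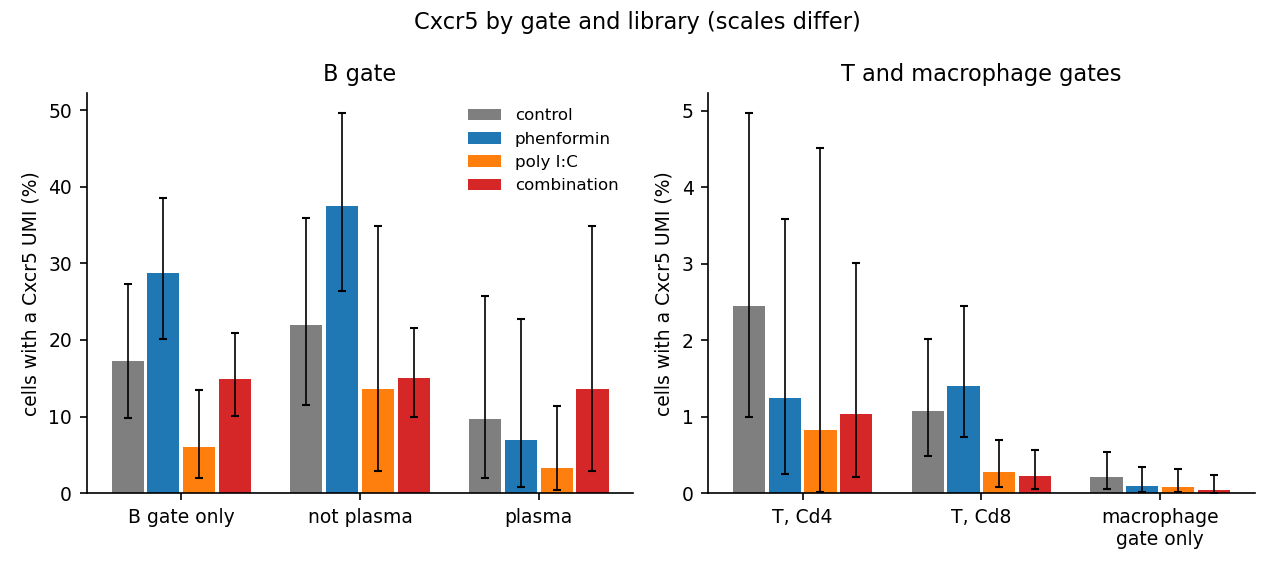
Share of cells with a Cxcr5 UMI (y axes, %, of different scale) in cells of the B gate alone, split by plasma markers (left), and in T cells with Cd4 or Cd8 and in macrophages (right), 1 bar per library with exact binomial 95% intervals. Poly I:C is lowest in the B gate (6.02%) and rests on 22 cells once plasma cells are left out.

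Cxcr5-positive cells of the B gate alone, summed over the 4 libraries (75 cells), were compared with the 371 without a Cxcr5 UMI. Plasma cells were left in, so the ratios carry the plasma content of the gate as well as differences between libraries. The part of each was not tested. Of all genes tested in this comparison, 19% were higher and 21.6% lower, so calls were frequent. B lineage genes stood higher: Cd22 3.48-fold (2.32 to 5.16), Pax5, the B cell identity factor, 3.14-fold and Ms4a1, which encodes CD20, 3.001-fold. Plasma genes stood lower: Jchain at 0.00409, Mzb1 at 0.0624 and Xbp1 at 0.082. Of 5 tested members of the naive and recirculating lymphocyte list, 4 were higher, among them Ccr7 (3.64-fold), Satb1 (2.57-fold) and Klf2 (1.95-fold). Over the 51 profiles the genes most like Cxcr5 included Pax5 (r = 0.96), Fcmr, Bank1, Vpreb3, Fcrl1, Ms4a1 and Cd79a (0.88), all of them genes of B cells.

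T cells with Cxcr5 were few and fewer still in both libraries given poly I:C. In the T gate a UMI was present in 22 of 1626 control cells (1.35%, 0.85 to 2.04) and 22 of 1493 phenformin cells (1.47%, 0.926 to 2.22). With poly I:C it was 10 of 2159 (0.463%, 0.222 to 0.85), and in combination 14 of 3064 (0.457%, 0.25 to 0.765). The control and poly I:C intervals touch, and the phenformin interval lies above both with poly I:C. Cells of the T gate alone gave 1.20%, 1.31%, 0.373% and 0.394%. Their levels of 1.94, 1.65, 0.571 and 0.706 CPM put poly I:C at 0.294 of control (0.115 to 0.673) and the combination at 0.364 of control (0.171 to 0.739). At 2000 UMIs per cell 9 of 1427, 7 of 1323, 0 of 1824 and 4 of 2644 such cells held one.

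The 54 Cxcr5-positive cells of the T gate alone were of mixed subset. Of them 29 held Cd8a or Cd8b1 without Cd4, 14 held Cd4 without Cd8, 5 both and 6 neither, and 8 held Foxp3, the regulatory T cell factor. By subset, 2.45%, 1.24%, 0.826% and 1.04% of Cd4 cells and 1.07%, 1.41%, 0.273% and 0.222% of Cd8 cells held Cxcr5. Among Cd4 cells the intervals of all 4 libraries overlapped.

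Cells of the 4 libraries were summed, so ratios also carry differences between libraries. Against the 7484 T cells without it, Cxcr5-positive T cells had more UMIs of genes known from naive and recirculating cells. Of all tested genes 11.4% were higher and 13.2% lower. Of 8 tested members of the follicular helper T list, 4 were higher: Tcf7, the factor of stem-like T cells, 7.18-fold (6.11 to 8.39), Sh2d1a, which encodes SAP, 1.98-fold, Batf 1.88-fold and Slamf6 1.73-fold. Sh2d1a was higher in 2 of the 4 libraries and the other 3 in all 4. Pdcd1, which encodes PD-1, at 0.321 and Icos at 0.332 were lower, although both are high in follicular helper cells. Bcl6, the factor that defines those cells, stood at 33.9 against 12.4 CPM from 20 UMIs and Il21, their cytokine, at 40.7 against 0.981 CPM from 24 UMIs, both under the level for testing. Of 7 tested members of the naive and recirculating list, 6 were higher, among them Lef1 3.05-fold (2.44 to 3.77), Satb1 2.49-fold and Ccr7 1.88-fold, which were higher in each of the 4 libraries. Cd8a stood at 0.488, Cd3e at 0.606 and Cd4 at 1.77. Of the other follicular helper list members, Tox at 1.45-fold (1.10 to 1.87) and Maf at 0.776 (0.588 to 1.004) were tested and not called. The rest were under the level for testing. Of these, Tox2 stood at 3.81-fold (2.20 to 6.18) from 17 UMIs and Btla at 3.16-fold (1.76 to 5.27) from 15. Cd200 (0.860) and Cd40lg (0.752) stood below 1. Il4 and S1pr2 had 0 UMIs in the Cxcr5-positive cells, and Ascl2 had 0 with or without Cxcr5.

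The same lists were counted in the whole T gate. Of 8 tested follicular helper members, none was higher and 3 were lower with poly I:C: Tcf7 at 0.305, Maf at 0.633 and Tox at 0.652 of control, beside 5.58% of all genes higher and 6.97% lower. With TMM scaling Maf (0.687) and Tox (0.708) were short of the fold. In combination 2 were lower, Tcf7 at 0.428 and Slamf6 at 0.566, beside 2.51% and 3.87%. Tcf7, which was high in Cxcr5-positive T cells, was lower in both libraries in which those cells were fewer. Of the naive and recirculating list none of 4 tested was called with poly I:C, and in combination over control Klf2 (1.89-fold) was higher and Ccr7 (0.618) lower of 6. Over poly I:C, the combination was higher in 3 of 6, Klf2 at 2.40-fold, Lef1 at 1.81-fold and Satb1 at 1.73-fold, beside 0.428% of all genes higher and 2.6% lower. Over phenformin, Klf2 (1.76-fold) was higher and Ccr7 (0.530) lower of 6, and Slamf6 (0.632) was the 1 follicular helper gene called, lower, of 7, beside 2.92% and 1.4%. Klf2, at 83.3 CPM, and Lef1, at 54.5, reached the level for testing in combination alone, and Tcf7 reached it in control alone. Satb1 reached it in every library. The place of Klf2, Lef1 and Tcf7 in these counts, those against poly I:C included, is a description only.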

How the data were processed

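The values analysed are UMI counts, deposited by the authors as 4 integer matrices without scaling. Per the file headers they come from Cell Ranger 3.1.0, and the submitters' processing notes list mm10 and GRCm38 as builds. The aligner settings and annotation release behind them are not used here. The libraries held 7309, 6539, 7668 and 9303 barcodes, and 57332308, 61097586, 76070132 and 71308923 UMIs in kept cells. No doublet caller was run; cells in several gates were counted and left out as an alternative. UMIs were summed per gate and scaled to CPM. Shares have Clopper-Pearson intervals, levels exact Poisson intervals and ratios the exact interval conditional on the total; a count of 0 is limited at 3 counts. Log2 ratios of lists and likeness (Pearson) use a pseudocount of 5 CPM; profiles had 20 or more cells, and genes 20 CPM or more in 1 profile. The interval of a ratio and the calling rule were tested on simulated data.

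The members, gates and lists were chosen with earlier results of these data known. Named were the 8 genes most like each member, the 12 highest and 8 lowest in macrophages with 2 or more Cxcl13 UMIs (at least 50 CPM and 30 UMIs), and list members; gene models named by number, receptor segments, globins, mitochondrial and ribosomal genes were left out of rankings. Some genes so chosen are not reported here. Markers beside these, the 5-UMI limit, the plasma limit and the group of Cd209f, Cd209g, Lyve1 and Cd163 were chosen after their values were seen. Alternatives were stricter filters (500 genes, 10% mitochondrial), higher and lower gates, thinning to 2000 UMIs, the mean over cells, TMM (edgeR 4.0.16) and DESeq2 1.42.0 size factors. Python packages were numpy and scipy.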

Additional observations from a re-analysis of the deposited data

Results flagged for a closer look

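Poly I:C had opposite directions for Cxcl13 in gated macrophages without and with phenformin: the CPM ratio was 0.378 for poly I:C over control and 4.06 for the combination over phenformin. The ratio rests on 1 library per treatment and the difference was not tested. By share of cells with a UMI, phenformin had opposite directions without and with poly I:C, at 0.554 of control and 3.97 of poly I:C, and this difference was not tested either. Without the richest macrophage of each library the CPM ratios were 0.561 and 8.92. With gates taken after thinning to 2000 UMIs neither pair had opposite directions: the CPM ratios were 2.37 and 5.07, and the shares 0.51% in control, 0.704% in phenformin, 1.04% in poly I:C and 3.28% in combination.

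Barcodes that the cell filter left out, which no comparison uses, held Cxcl13 at 17.2 CPM in combination (11.0 to 25.6, 24 UMIs in 1035 barcodes), above 2.30 CPM in control (0.627 to 5.89, 4 UMIs in 1214 barcodes).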

How the results depend on the processing

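No paired analysis was possible because each treatment has 1 library. The combination over control ratio of Cxcl13 in gated macrophages stayed above 1 under every alternative run, from 4.89 to 12.1, and TMM factors moved none of the 5 macrophage CPM ratios of Cxcl13 beyond its counting interval. The cause of each change below was not tested unless given. Stricter filters (500 genes, 10% mitochondrial) put the phenformin ratio of macrophages with over without 3 Cd72 and Slamf9 UMIs (the split ratio) at 13.2. Without cells in several gates, CPM ratios were 1.29 for phenformin over control, 4.89 for combination over control and 13.4 for combination over poly I:C, the combination split ratio was 1.31, and Cxcr5 was in 14.9% of combination B cells. Thinning to 2000 UMIs gave CPM ratios of 1.30 (phenformin over control), 0.732 (poly I:C over control), 8.27 (combination over poly I:C) and 4.65 (combination over phenformin), and split ratios of 10.9 in control and 1.16 in combination. Shares of macrophages with Cxcl13 were then 0.55% in control, 0.649% in poly I:C and 2.91% in combination. Cxcr5 was then in 6.54%, 11.4% and 1.99% of control, phenformin and poly I:C B cells and in 0.709%, 0.553%, 0% and 0.172% of T cells.

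With gates taken after thinning, poly I:C over control reversed to 2.37 and the phenformin split ratio to 0. The other CPM ratios were 2.38 (phenformin over control), 12.1, 5.09 and 5.07 (combination over control, poly I:C and phenformin), and the split ratios 2.57 in control, 8.09 in poly I:C and 1.09 in combination. Cxcl13 was then in 0.51%, 0.704%, 1.04% and 3.28% of macrophages, and Cxcr5 in 0.805%, 0.585%, 0% and 0.202% of T cells. The mean of per-cell CPM gave 0.638 for poly I:C over control, 7.18, 11.3 and 4.89 for combination over control, poly I:C and phenformin, and split ratios of 9.16 in control and 1.28 in combination. Higher gates reversed the poly I:C split ratio to 0.412, with 6.68 in phenformin and 1.70 in combination, and Cxcr5 in 14.1% of combination B cells. Lower gates gave split ratios of 6.35 and 2.60 in phenformin and combination, and Cxcr5 in 6.03%, 11.1% and 4.89% of control, phenformin and combination B cells.

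Chosen after seeing the data, leaving out the richest macrophage of each library gave 1.10 (phenformin over control), 0.561 (poly I:C over control), 9.82 and 8.92 (combination over control and phenformin), and split ratios of 4.96 in phenformin and 1.99 in combination. Also chosen after seeing the data, the B gate without plasma cells and cells in several gates held Cxcr5 in 22%, 37.5%, 13.6% and 15.1% of cells.

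Counts of genes past the fold grew without the filter on low counts, by the filter's own construction: combination over control had 841 higher and 929 lower, against 137 and 160. Without the filter the other comparisons had 195 higher and 732 lower (phenformin over control, 15 and 8 with it), 711 and 933 (poly I:C over control, 104 and 135), 565 and 635 (combination over poly I:C, 32 and 46) and 1192 and 628 (combination over phenformin, 115 and 140). TMM and DESeq2 factors gave 5 lower for phenformin over control and 83 lower for poly I:C over control, and TMM gave 20 higher for combination over poly I:C. TMM put poly I:C over control at 139 higher and 83 lower.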
